A study of Mus musculus with 4 samples.

Results

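Excitation-contraction coupling at the triad was examined through 6 genes, Scn4a, Cacna1s, Ryr1, Stac3, Jph1 and Jph2, which were chosen by name from the 1000 genes of the deposited count table. All 6 were found there. The table covers tibialis anterior muscle, a leg muscle, of mice of the Dmd Dup2 genotype, a Duchenne muscular dystrophy model named for a duplication in the dystrophin gene. The treated muscle was given scAAV9.U7-ACCA, an AAV9 gene transfer vector for a modified U7 small nuclear RNA used in exon skipping, and the other muscle was the untreated control. Both carry the same Dmd allele, and the labels give no wild-type muscle, no age or sex, and no number of animals behind a library. Each muscle gave an RNA-seq library (mRNA) and a library of ribosome-protected fragments (footprints), the stretches of mRNA that ribosomes cover. There was thus 1 library in each of 4 groups (treated mRNA, untreated mRNA, treated footprints and untreated footprints), so every difference below compares these libraries without replicates.

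The triad is the junction where a transverse tubule, an inward fold of the fibre membrane, lies between a pair of cisternae of the sarcoplasmic reticulum. An action potential carried by sodium channels runs down the tubule, a calcium channel in the tubule wall senses the voltage, and through physical contact it opens the release channel of the reticulum. Adaptor and bridging proteins hold the membranes and the channels in register. In skeletal muscle this coupling is mechanical and does not need calcium entry from outside. Scn4a encodes the muscle sodium channel, Cacna1s the voltage-sensing calcium channel subunit, Ryr1 the release channel and Stac3 an adaptor of the voltage sensor. Jph1 and Jph2 encode junctophilins, which bridge the tubule and the reticulum.

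RefSeq start-site windows (assembly GRCm38.p6, 250 bases before to 50 after an annotated start) were matched by symbol for 4 of the 6 genes. All 4 genes with a window are shown, and a link between the motifs and the ratios below was not tested. Capitals mark the E-box CAGCTG, a hexamer bound by myogenic transcription factors, and the MCAT element CATTCC, read on either strand. The windows are Cacna1s at chr1:136052561-136052860 on the plus strand, and, on the minus strand, Scn4a at chr11:106349341-106349640, Ryr1 at chr7:29125102-29125401 and Jph2 at chr2:163397944-163398243.
Cacna1s: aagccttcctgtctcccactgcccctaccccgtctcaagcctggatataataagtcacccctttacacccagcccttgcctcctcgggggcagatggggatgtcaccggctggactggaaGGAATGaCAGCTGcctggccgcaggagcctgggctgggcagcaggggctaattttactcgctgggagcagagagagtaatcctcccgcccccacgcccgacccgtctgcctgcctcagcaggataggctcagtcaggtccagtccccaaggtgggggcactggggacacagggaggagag
Scn4a: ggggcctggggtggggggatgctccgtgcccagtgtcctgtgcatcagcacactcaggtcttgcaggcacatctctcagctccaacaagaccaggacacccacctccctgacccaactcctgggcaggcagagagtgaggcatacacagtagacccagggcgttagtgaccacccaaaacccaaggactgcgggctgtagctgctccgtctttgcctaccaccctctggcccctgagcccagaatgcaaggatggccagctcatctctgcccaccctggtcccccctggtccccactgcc
Ryr1: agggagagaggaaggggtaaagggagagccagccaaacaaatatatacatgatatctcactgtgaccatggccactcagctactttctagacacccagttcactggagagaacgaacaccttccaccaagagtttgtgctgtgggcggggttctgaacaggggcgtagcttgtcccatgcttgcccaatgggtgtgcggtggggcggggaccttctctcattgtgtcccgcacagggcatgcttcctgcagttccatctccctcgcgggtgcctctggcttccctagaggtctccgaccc
Jph2: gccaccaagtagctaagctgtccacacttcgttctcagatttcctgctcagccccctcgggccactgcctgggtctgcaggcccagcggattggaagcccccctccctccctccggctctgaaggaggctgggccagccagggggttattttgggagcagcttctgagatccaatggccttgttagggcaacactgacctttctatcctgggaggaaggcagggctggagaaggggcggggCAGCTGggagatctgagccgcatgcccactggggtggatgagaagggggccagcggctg
The Cacna1s window held CAGCTG and, ahead of it with 1 base between, GGAATG, which is CATTCC on the other strand. The Jph2 window held CAGCTG alone. Another annotated Jph2 start gave an overlapping window, chr2:163397924-163398223, which is not shown and also held CAGCTG alone. The Scn4a and Ryr1 windows held neither hexamer, nor the general E-box CANNTG, of which CAGCTG is a case and which is present in 72.3% of all windows. CAGCTG was present in 16.3%, CATTCC in 14.7% and both in 2.57% of all 32851 windows of this length. No MEF2 site or CArG box, present in 3.19% and 1.63% of all windows, was found in the 4 windows on either strand. The Scn4a start lies 16169 bases inside the outermost annotated end of the gene, so the window is not at that end. Stac3 and Jph1 had no entry.

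The 4 libraries differed widely in depth. The listed genes held 4248818 reads in treated mRNA, 125236 in untreated mRNA, 1664122 in treated footprints and 3349015 in untreated footprints, and the median gene had 705, 25, 297 and 626 reads in that order. Of 12 skeletal fibre markers 11 were listed, with 0 at 0 reads, and they made up 25.0% and 32.5% of treated and untreated mRNA reads and 34.3% and 34.7% of treated and untreated footprints. The 5 listed of 14 macrophage markers made up 0.0239% of treated mRNA reads and 0.141% of untreated mRNA reads, and 0.0712% and 0.160% of treated and untreated footprints. The 13 listed of 16 fibroblast and matrix markers made up 0.394% and 2.54% of treated and untreated mRNA reads, and 0.757% and 3.50% of treated and untreated footprints. Slow fibre markers (5 of 9 listed) stood at 0.222% and 0.225% of treated and untreated mRNA reads and 0.758% and 0.921% of treated and untreated footprints. Most of their treated mRNA reads were of Myh7, with 9217 treated and 105 untreated reads, so the sums hide opposite directions. With the scaling and calls given below, 1 slow fibre marker was higher and 3 lower in treated mRNA, and 0 higher and 2 lower in footprints. Of the other marker lists, 2 of 10 endothelial and smooth muscle, 1 of 6 adipocyte, 0 of 7 red blood cell and 0 of 6 Schwann cell genes were listed. None of the listed markers was at 0, and the part of other cell types in the ratios below was not tested. In such bulk muscle, fewer cells of a type and less RNA per cell cannot be told apart.

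Together the 6 genes took 1.19% (95% exact binomial interval 1.18 to 1.20) of listed reads in treated mRNA, against 0.778% (0.730 to 0.828) in untreated mRNA. In footprints they took 0.703% (0.690 to 0.716) in treated muscle and 0.459% (0.452 to 0.466) in untreated muscle. Most of these reads belonged to Ryr1, at 69.0% and 81.2% of the 6 genes' reads in treated and untreated mRNA and 76.1% and 71.7% in treated and untreated footprints. Reads grow with transcript length and Ryr1 has a very long transcript, so this share is not a count of molecules. No coding lengths were used, and levels of different genes are therefore not ranked. Without Ryr1, the other 5 genes made up 0.368% (0.362 to 0.373) and 0.146% (0.126 to 0.169) of listed reads in treated and untreated mRNA, and 0.168% (0.162 to 0.174) and 0.130% (0.126 to 0.134) in treated and untreated footprints.

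**Figure D1:**
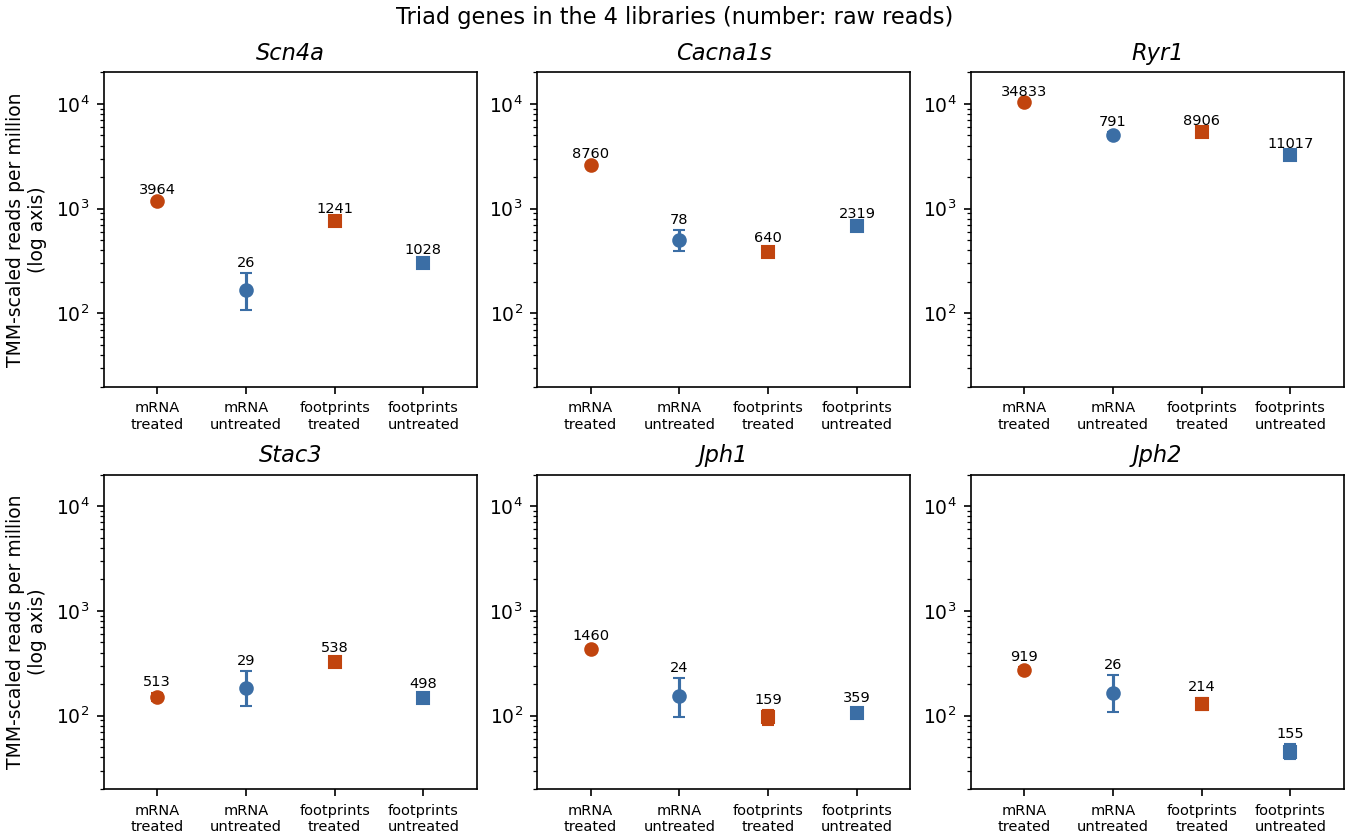
Reads of each gene in the 4 libraries, as TMM-scaled CPM of the listed genes on a log axis, with raw reads printed above and exact Poisson 95% intervals (counting error only). Cacna1s stood higher in treated than untreated mRNA and lower in treated than untreated footprints, the only one of the 6 called in opposite directions. Genes outside the 6, such as Gapdh, also had such opposite calls.

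For the comparisons, reads were scaled with TMM (trimmed mean of M-values) over all listed genes. Calls of higher or lower needed a ratio of 1.5-fold or more between treated and untreated muscle, a 95% interval that excluded 1 and 50 or more reads over the libraries compared. With 1 library a group no test was possible, and intervals cover counting error only. In mRNA 5 of the 6 genes were called higher and 0 lower, while 31.8% of all 996 genes compared were called higher and 24.8% lower (56.6% either way). In footprints 4 were called higher and 1 lower, against 19.9% and 26.2% of 999 genes (46.1% either way). Footprints per mRNA, the ratio in footprints over the ratio in mRNA, were called higher for 2 and lower for 3, against 26.0% and 31.9% of 995 genes (57.9% either way). The median log2 ratio of the 6 was 1.26 in mRNA, 0.95 in footprints and −0.88 in footprints per mRNA, where all genes had medians of 0.06, −0.02 and −0.11. The counts follow the scaling. With the listed totals or with the authors' library constants, 3 of the 6 were higher and 1 lower in mRNA. Of the 996 genes, 148 were higher and 464 lower with the listed totals, and 110 and 543 with the authors' constants. Of all mRNA calls, 56.2% were higher with TMM, 24.2% with the listed totals and 16.8% with the authors' constants.

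**Figure D2:**
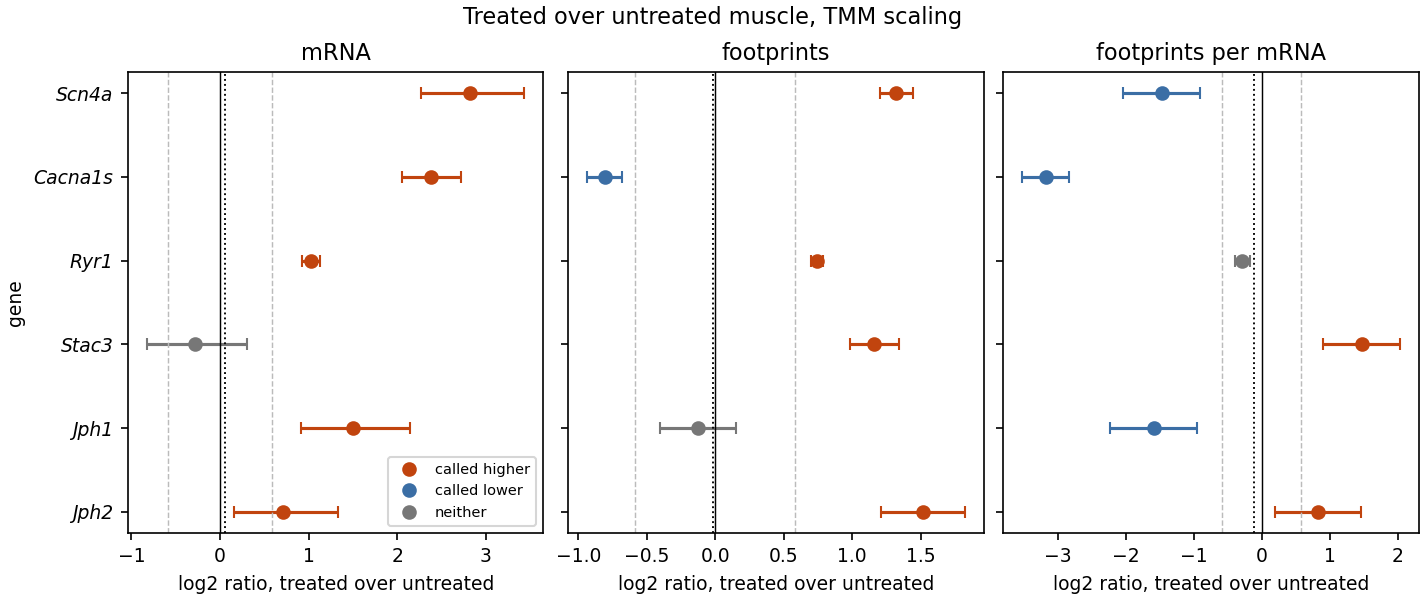
Treated over untreated log2 ratios of the 6 genes in mRNA, footprints and footprints per mRNA, with 95% intervals from counting error. Solid lines mark no difference, dashed lines 1.5-fold and dotted lines the median listed gene. The mRNA ratios span 8.62-fold, the footprint ratios 5.00-fold and the footprints per mRNA ratios 25.1-fold.

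Scn4a (NM_133199) encodes Nav1.4, the sodium channel that carries the action potential over the fibre surface and into the tubules. It had 3964 reads in treated mRNA and 26 in untreated mRNA, or 1174 TMM-scaled CPM (1137 to 1211) and 166 (108 to 243). Its footprints numbered 1241 in treated muscle and 1028 in untreated muscle, or 754 (713 to 798) and 302 (284 to 321) scaled CPM. Treated muscle was thus the higher in both kinds of library, and the counting intervals did not overlap. The mRNA ratio was 7.07 (4.82 to 10.8), above that of 99.2% of genes, and the footprint ratio was 2.50 (2.30 to 2.72), above 95.3%. Footprints per mRNA were 2.78-fold lower (1.88 to 4.11) in treated muscle. Each of these 3 calls held under the 5 other library scalings.

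Cacna1s (NM_001081023) encodes the pore-forming subunit of CaV1.1, the dihydropyridine receptor, which is the voltage sensor of coupling. It had 8760 reads in treated mRNA and 78 in untreated mRNA, or 2593 (2539 to 2648) and 498 (393 to 621) scaled CPM. Its footprints numbered 640 in treated muscle and 2319 in untreated muscle, or 389 (359 to 420) and 681 (653 to 709) scaled CPM. The order of the 2 muscles was opposite in mRNA and in footprints. The mRNA ratio was 5.21 (4.17 to 6.60), above 97.5% of genes, while footprints were 1.75-fold lower (1.60 to 1.91), with 18.3% of genes lower still. Footprints per mRNA were 9.06-fold lower (7.13 to 11.5) in treated muscle, and 1.01% of 995 genes had a lower value. Under the 5 other scalings all 3 calls held, with a footprint log2 ratio of −0.73 or below and one of −2.57 or below for footprints per mRNA. At a 2-fold threshold the footprint call was lost.

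Ryr1 (NM_009109), the calcium release channel of the reticulum, had 34833 reads in treated mRNA and 791 in untreated mRNA, or 10312 (10204 to 10421) and 5048 (4702 to 5413) scaled CPM. Its footprints numbered 8906 in treated muscle and 11017 in untreated muscle, or 5413 (5302 to 5527) and 3235 (3175 to 3296) scaled CPM. It was the most deeply read of the 6, so its intervals were the narrowest. With TMM the mRNA ratio was 2.04 (1.90 to 2.19) and the footprint ratio 1.67 (1.63 to 1.72). Footprints per mRNA were 1.22-fold lower (1.13 to 1.32), under the 1.5-fold threshold. The mRNA call was lost with the listed totals, at 1.30 (1.21 to 1.39), and with the authors' constants, at 1.11 (1.03 to 1.19). With the authors' constants the footprint ratio of 1.39 (1.35 to 1.43) was also under the threshold.

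Stac3 (NM_177707), an adaptor with an SH3 domain that binds the voltage sensor and is needed for its delivery and coupling, had 513 reads in treated mRNA and 29 in untreated mRNA. These equal 152 (139 to 166) and 185 (124 to 266) scaled CPM, and the intervals overlapped. Its footprints numbered 538 in treated muscle and 498 in untreated muscle, or 327 (300 to 356) and 146 (134 to 160) scaled CPM. Stac3 was the only one of the 6 not called in mRNA, with a ratio of 0.821 (0.564 to 1.24), yet its footprints were 2.24-fold higher (1.98 to 2.53). Footprints per mRNA were 2.77-fold higher (1.87 to 4.09) in treated muscle, above 90.4% of genes. With the listed totals, the upper quartile or the authors' constants, Stac3 mRNA was called lower in treated muscle, at ratios of 0.521 (0.359 to 0.787), 0.623 (0.428 to 0.939) and 0.445 (0.306 to 0.672). Its footprint call held under those scalings.

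The junctophilins Jph1 and Jph2 share a build of membrane-binding repeats at one end and an anchor in the reticulum at the other. Jph1 (NM_020604), the main junctophilin of skeletal muscle, had 1460 reads in treated mRNA and 24 in untreated mRNA, or 432 (410 to 455) and 153 (98.1 to 228) scaled CPM. Its footprints numbered 159 in treated muscle and 359 in untreated muscle, or 96.6 (82.2 to 113) and 105 (94.8 to 117) scaled CPM. So Jph1 was apart in mRNA and overlapped in footprints. Its mRNA ratio was 2.82 (1.89 to 4.42), its footprint ratio 0.917 (0.756 to 1.11), and footprints per mRNA were 3.01-fold lower (1.94 to 4.68) in treated muscle. Each call held under the 5 other scalings.

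Jph2 (NM_021566), the junctophilin that skeletal muscle shares with the heart, had 919 reads in treated mRNA and 26 in untreated mRNA, or 272 (255 to 290) and 166 (108 to 243) scaled CPM. Its footprints numbered 214 in treated muscle and 155 in untreated muscle, or 130 (113 to 149) and 45.5 (38.6 to 53.3) scaled CPM. The wider gap was in footprints, where Jph2 had the highest ratio of the 6, at 2.86 (2.31 to 3.54), above 97.3% of genes, though its interval overlapped those of Scn4a and Stac3. Its mRNA ratio of 1.64 (1.11 to 2.52) was called with TMM and with DESeq2 size factors. It was not called with the listed totals, the upper quartile, the 20 most abundant genes left out or the authors' constants, the last of which put it at 0.890 (0.603 to 1.37). Footprints per mRNA were 1.77-fold higher (1.15 to 2.75) in treated muscle, the reverse of Jph1.

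**Figure D3:**
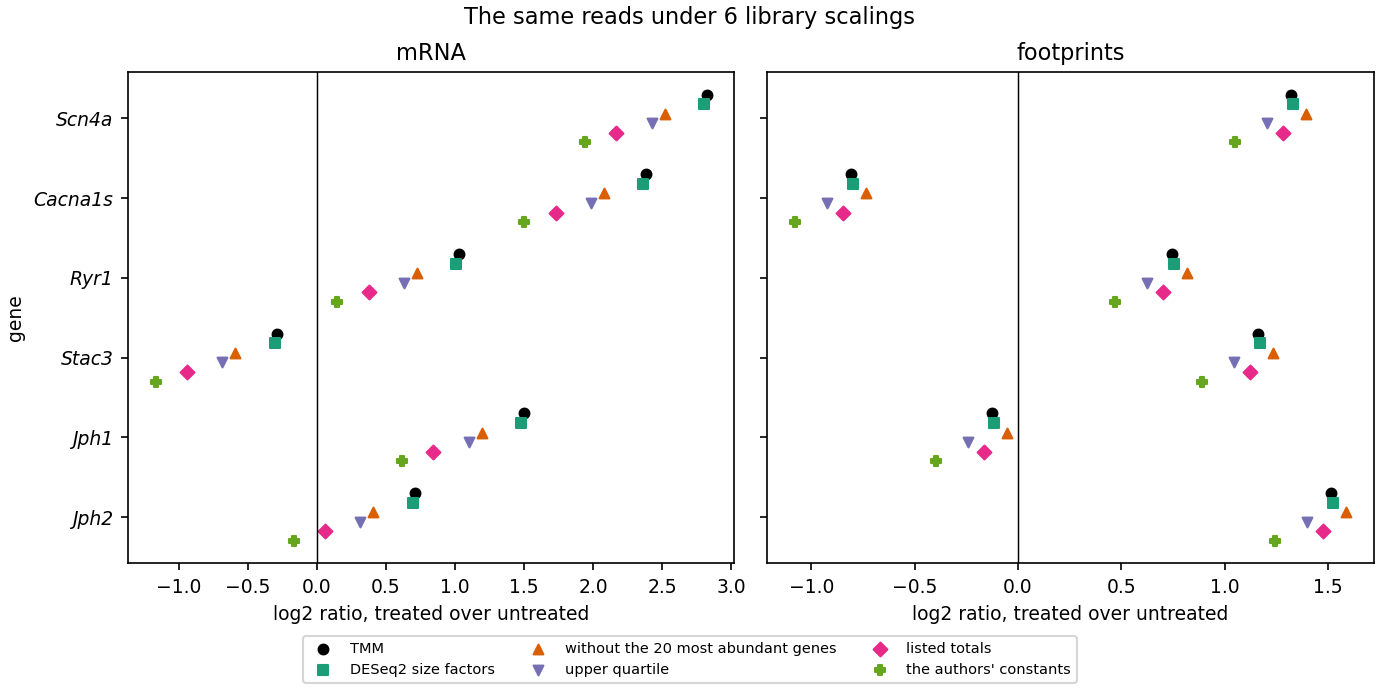
Log2 ratios of the 6 genes in mRNA and footprints, treated over untreated, from the same reads under 6 library scalings. A change of scaling moves all genes of a panel together, Scn4a mRNA between 1.94 and 2.82, and Jph2 mRNA crosses 0 with the authors' constants. In footprints no gene crosses 0.

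Ratios between 2 of these genes within a library do not depend on the scaling, so all 15 pairs were compared between treated and untreated muscle as odds ratios with exact conditional 95% intervals. The interval excluded 1 for 11 pairs in mRNA and for 12 in footprints. For 8 pairs it did so in both, of which 6 went in opposite directions in mRNA and footprints and 2 in the same direction. Pairs share members, so these are not independent counts. Pairs of other listed genes were not compared, so whether such counts are particular to the triad genes was not tested. The voltage sensor and the release channel, which face each other across the junction, were among the 6 pairs with opposite directions. Cacna1s had 0.251 mRNA reads per Ryr1 read in treated muscle and 0.0986 in untreated muscle, an odds ratio of 2.55 (2.02 to 3.26). In footprints it had 0.0719 per Ryr1 footprint in treated muscle and 0.210 in untreated muscle, which was 2.93-fold lower (2.67 to 3.22) in treated muscle.

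The voltage sensor and its adaptor were another. Cacna1s had 17.1 mRNA reads per Stac3 read in treated muscle and 2.69 in untreated muscle, an odds ratio of 6.35 (3.96 to 9.94). Its footprints per Stac3 footprint were 1.19 in treated muscle and 4.66 in untreated muscle, 3.91-fold lower (3.36 to 4.56) in treated muscle. Scn4a and Cacna1s, the 2 voltage-gated channels, had an mRNA odds ratio of 1.36 (0.860 to 2.21), an interval that holds 1 and also a difference of up to 2.21-fold. In footprints Scn4a had 1.94 per Cacna1s footprint in treated muscle and 0.443 in untreated muscle, an odds ratio of 4.37 (3.87 to 4.94). Jph1 had 0.743 footprints per Jph2 footprint in treated muscle and 2.32 in untreated muscle, 3.11-fold lower (2.34 to 4.16) in treated muscle. The mRNA odds ratio of that pair, 1.72 (0.943 to 3.15), had an interval that held 1.

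Within each muscle, footprints per mRNA were set against the median listed gene, which also removes the scaling. In treated muscle Cacna1s stood 6.56-fold (6.05 to 7.11) below the median gene and only 39 of 997 genes were lower. In untreated muscle it stood 1.36-fold (1.09 to 1.70) above the median gene, with 709 of 998 genes lower. Scn4a likewise lay on either side, at 1.53-fold (1.44 to 1.63) below the median gene in treated muscle and 1.78-fold (1.21 to 2.62) above it in untreated muscle. Ryr1 was below the median gene in both muscles, 1.88-fold (1.83 to 1.92) in treated and 1.56-fold (1.45 to 1.68) in untreated muscle. Stac3 was 2.19-fold (1.94 to 2.47) above it in treated muscle, and in untreated muscle its ratio of 0.777 (0.536 to 1.13) was within counting error of the median gene. The junctophilins stood in opposite order in the 2 muscles. Jph1 was 4.39-fold (3.73 to 5.17) below the median gene in treated muscle and at a ratio of 0.675 (0.448 to 1.02) in untreated muscle, while Jph2 was 2.06-fold (1.77 to 2.38) below it in treated and 3.71-fold (2.45 to 5.59) below it in untreated muscle. In treated muscle the order from low to high was Cacna1s, Jph1, Jph2, Ryr1, Scn4a and Stac3, and only the neighbours Jph2 and Ryr1 had overlapping intervals. In untreated muscle it was Jph2, Ryr1, Jph1, Stac3, Cacna1s and Scn4a, where the intervals of Ryr1, Jph1 and Stac3 overlapped, as did those of Cacna1s with Stac3 and with Scn4a.

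**Figure D4:**
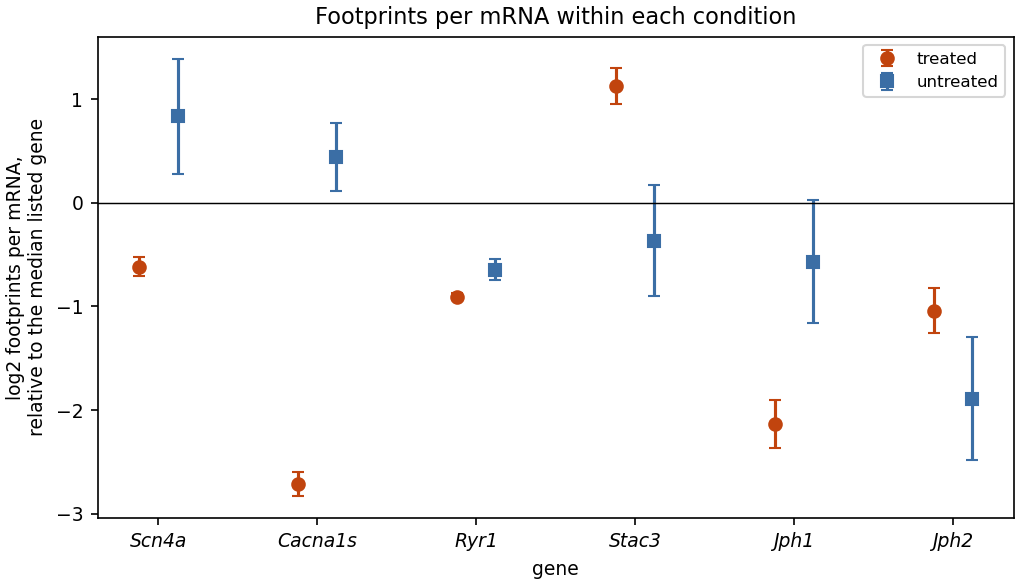
Log2 footprints per mRNA of each gene relative to the median listed gene, in treated (circles) and untreated (squares) muscle, with 95% intervals from counting error. Cacna1s lies 2.71 below the median gene in treated muscle and 0.44 above it in untreated muscle, whereas Stac3 lies 1.13 above it in treated muscle.

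Transcript length and depth were set beside the mRNA ratios. Among 29 listed genes known for very long transcripts, a list drawn up after the data were seen and holding none of the 6, 26 were called higher in treated mRNA and 0 lower, with a median log2 ratio of 1.68. Footprints per mRNA were lower for 24 of them and higher for 0, with a median log2 ratio of −1.29. Beside it, the log2 ratios in footprints per mRNA were −1.47 for Scn4a, −1.59 for Jph1 and −3.18 for Cacna1s. Those of Ryr1, Jph2 and Stac3 were −0.29, 0.83 and 1.47. Set against the mRNA median of the 29 genes, Scn4a mRNA was 2.21-fold higher (1.51 to 3.39) and Cacna1s mRNA 1.63-fold higher (1.31 to 2.07). Ryr1 mRNA lay below it at 0.640 (0.596 to 0.687). Jph1, at 0.884 (0.591 to 1.38), was within counting error of that median, while Jph2, at 0.513 (0.348 to 0.790), and Stac3, at 0.257 (0.177 to 0.388), were below it. Scn4a, Stac3, Jph1 and Jph2 had between 24 and 29 untreated mRNA reads, close to the lowest count listed, 14. The 367 other genes with 20 to 39 untreated reads had a median mRNA log2 ratio of −0.02, with quartiles of −0.73 and 0.80, and 31.1% were called higher. Jph2 and Stac3 mRNA fell between those quartiles, and Jph1 and Scn4a above them. No coding lengths were used, so the 6 genes were not matched to the very long transcripts by length. The part of transcript length in the 6 ratios was not tested.

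The other triad and tubule genes showed no common direction. Of 26 on that list 13 were analysed here, and with TMM 3 were higher and 1 lower in treated mRNA, 3 higher and 3 lower in footprints, and 1 higher and 5 lower in footprints per mRNA. Over all genes, 31.8% were higher and 24.8% lower in mRNA, and 19.9% and 26.2% in footprints. In footprints per mRNA those shares were 26.0% and 31.9%. With the authors' constants the mRNA split of the 13 became 1 higher and 8 lower and their footprint split 0 higher and 5 lower. All genes moved likewise, to 110 higher and 543 lower of 996 in mRNA and 114 and 365 of 999 in footprints. The split of footprints per mRNA turned over, to 5 higher and 2 lower, with the listed totals and with the authors' constants. That of all 995 genes turned over too, from 259 higher and 317 lower with TMM to 444 and 157 with the listed totals. With the authors' constants it was 444 and 158. With TMM the median mRNA log2 ratio of the 13 lay 0.12 above the median gene, and that of the 6 genes 1.21 above it. Tmem38a, a cation channel of the reticulum, had 3169 reads in treated mRNA and 40 in untreated mRNA, with 653 and 1538 footprints in treated and untreated muscle. Its mRNA was 3.68-fold higher (2.69 to 5.15) and its footprints per mRNA 4.13-fold lower (2.99 to 5.70), the same combination of calls as Jph1.

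Trdn encodes triadin, which ties the release channel to the calcium store. It was 1.81-fold higher (1.54 to 2.14) in treated mRNA and 1.75-fold higher (1.68 to 1.82) in footprints, close to Ryr1, though its mRNA call held in 2 of 6 scalings and its mRNA log2 ratio was −0.02 with the authors' constants. Asph, the locus of the related reticulum protein junctin, had an mRNA ratio of 0.690 (0.452 to 1.10) and footprints 1.80-fold higher (1.57 to 2.08), the pattern seen for Stac3. Stim1, the calcium sensor of the reticulum, was 1.73-fold higher (1.12 to 2.81) in mRNA with TMM, but its log2 ratio was −0.09 with the authors' constants.

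Footprints of 3 genes were lower. Srl, which encodes the reticulum protein sarcalumenin, was 2.91-fold lower (2.73 to 3.11), Bin1, a tubule-shaping protein, 1.88-fold (1.72 to 2.06) and Sypl2, the triad protein mitsugumin-29, 2.63-fold (2.22 to 3.11). These footprint calls held under all 6 scalings. Among them Sypl2 was also called lower in mRNA, by 1.54-fold (1.02 to 2.24). Casq1, which encodes the reticulum calcium buffer calsequestrin, and Hrc, Speg, Cacng1 and Jsrp1 were called in neither mRNA nor footprints with TMM. None of the 11 related genes of the 6 from other tissues that were looked for, such as Ryr2 and Cacna1c, was analysed here.

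**Figure D5:**
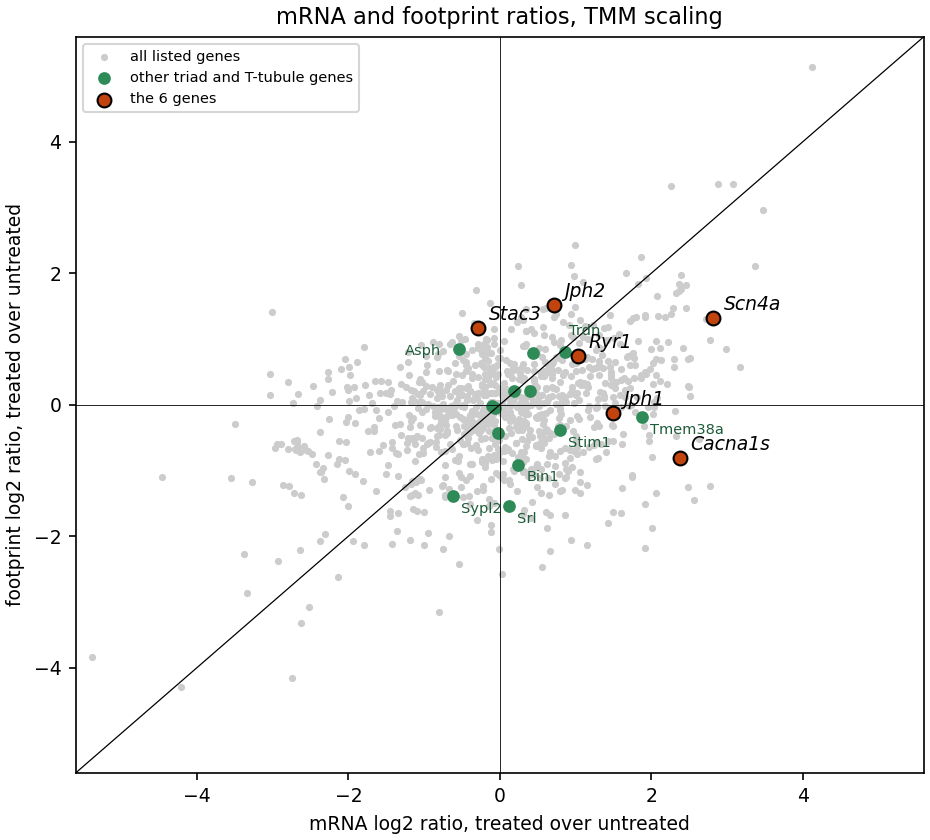
Footprint against mRNA log2 ratios, treated over untreated, for all listed genes with enough reads (grey), the 13 other triad and tubule genes (green, some of them named) and the 6 genes (orange). The diagonal marks equal ratios. Cacna1s lies at 2.38 in mRNA and −0.81 in footprints, and Stac3 at −0.29 and 1.16.

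For each gene the nearest of 994 others with 50 or more reads in each comparison, the other 5 included, were found by the Euclidean distance of log2 scaled reads over the 4 libraries, each gene centred on its own mean. Nearest to Cacna1s were Csda (distance 0.24), Tcea3 (0.29) and Drap1 (0.44). Nearest to Scn4a were Huwe1 (0.47), Tns1 (0.48) and Lpin1 (0.56), and nearest to Ryr1 were Son (0.18), Tob1 (0.20) and the muscle chloride channel gene Clcn1 (0.20). Stac3 was closest to Hk2 (0.11), Hist1h4k (0.16) and Psmb3 (0.20), and Jph1 to Pabpc4 (0.24), Cep350 (0.31) and Man2a2 (0.35). Genes near Jph2 included Prrc2a (0.62) and Mll2 (0.69). Among the 6 themselves the closest pair was Cacna1s and Jph1 (0.82) and the farthest Cacna1s and Stac3 (2.79), and no gene of the 6 had another of them among its 3 nearest.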

How the data were processed

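Reads were counted by the authors and deposited as 1 table of 1000 genes with whole-number read counts per library, per the file headers. The deposited normalized values are each library's counts times a single constant (within 0.287) and were read as CPM, a unit inferred from the values. The submitters' processing notes name Trimmomatic, STAR, edgeR and the build mm9. The counting tool and strand setting were not given in the sources used here. Rows run down to 14 untreated mRNA reads, so genes with fewer there were not analysed here.

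Counts were scaled with TMM (edgeR 4.0.16, R 4.3.3) over the listed genes. Ratios have exact conditional binomial 95% intervals (SciPy 1.17.1). Footprints per mRNA used 0.5 added to each count and a normal interval on the log scale. The calculation of the mRNA and footprint ratios was tested on simulated Poisson counts. These hold counting error alone, so that test does not bear on variation between libraries or animals. Depth limits precision most in untreated mRNA, and no molecular identifiers are named in the labels, so intervals cover counting error only. Alternatives were DESeq2 1.42.0 size factors and 4 other scalings, other read minimums, a 2-fold threshold and another added count. Levels per coding length and a zero point from long coding regions were planned but not run, since no coding lengths were used. The genes, gene lists and tests were chosen with earlier results of these data known. The 6 genes are all named, other triad and membrane genes wherever they were called, and the 3 nearest genes of each of the 6. Some genes that this rule takes in are not reported here. For names, 996 of the table's identifiers matched RefSeq (GRCm38.p6).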

Additional observations from a re-analysis of the deposited data

Results flagged for a closer look

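Cacna1s was set apart because its mRNA and its footprints were called in opposite directions between treated and untreated muscle. Cacna1s mRNA was 5.21-fold higher (4.17 to 6.60) and its footprints 1.75-fold lower (1.60 to 1.91) in the treated libraries. Its ratio of footprints per mRNA was thus 0.11 (0.0870 to 0.140). The difference was not tested, since each group had 1 library. The untreated mRNA value rests on 78 reads.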

How the results depend on the processing

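No paired analysis was possible because each group had 1 library, and no library could be left out. The read minimums left the 6 genes' ratios as they were, since each gene had over 200 reads in every comparison. Across the other settings, of the log2 ratios of single genes, 97 kept direction and call, 10 lost the call, 3 gained it and 4 changed direction. With the listed totals 3 genes were higher and 1 lower in mRNA, and medians were 0.61 in mRNA and −0.27 in footprints per mRNA. With the authors' constants the counts were again 3 and 1, and medians were 0.38 in mRNA, 0.68 in footprints and −0.27 in footprints per mRNA. With the upper quartile 1 was lower in mRNA, and medians were 0.87 in mRNA and 0.83 in footprints. Without the 20 most abundant genes the median of footprints per mRNA was −0.50. At 2-fold, Jph2 mRNA and Ryr1 footprints were no longer called, 0 were lower in footprints and 1 higher in footprints per mRNA. Ryr1 footprints per mRNA changed direction to 0.33 with the listed totals, 0.32 with the authors' constants and 0.090 when the 20 most abundant genes were left out, and Jph2 mRNA to −0.17 with the authors' constants. The scaling moves every gene of a comparison by the same amount. All genes' median mRNA log2 ratio was 0.06 with TMM and −0.82 with the authors' constants, and genes called higher made up 56.2% and 16.8% of calls. An order of the genes by level and a zero point from long coding regions were not run, since no coding lengths were used. Genes known for very long transcripts were an alternative added after seeing the data, not matched to the 6 by length. Against their median, the mRNA values were −0.64 for Ryr1, −0.18 for Jph1 and −0.96 for Jph2. Against genes with a like number of untreated mRNA reads, also added, the 6 kept direction and call.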

Other observations

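Membrane excitability genes outside the triad were looked at in the same way, and 4 of 18 on that list were analysed here. Clcn1, the chloride channel that stabilises the resting fibre membrane, had 808 reads in treated mRNA and 17 in untreated mRNA, and 224 and 283 footprints in treated and untreated muscle. It was 2.20-fold higher (1.37 to 3.80) in mRNA and 1.64-fold higher (1.37 to 1.96) in footprints with TMM. Atp1b1, a beta subunit of the sodium pump, was 2.20-fold lower (1.70 to 2.81) in mRNA, with a footprint ratio of 1.04 (0.936 to 1.15). Fxyd1, a small regulator of the pump, was 1.56-fold lower (1.01 to 2.33) in mRNA, with a footprint ratio of 0.989 (0.851 to 1.15). With the listed totals and with the authors' constants the mRNA call of Clcn1 was lost, while those of Atp1b1 and Fxyd1 held under all 6 scalings. The footprint call of Clcn1 held in 5 of 6 scalings and was lost with the authors' constants, at a log2 ratio of 0.44.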
